A study of Mus musculus with 6 samples.

Results

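The genes described here are 10 genes by which lung fibroblasts are commonly recognised: Limch1, Npnt, Tcf21, Meox2, Foxf1, Tbx2, Tbx4, Tbx5, Inmt and Gli1. They were taken by symbol from a table of counts per gene, where all 10 were found among 25239 genes. RNA was measured in mouse primary pulmonary fibroblasts, cells cultured from lung tissue, in 3 quiescent and 3 senescent libraries, the latter driven into senescence with Nutlin 3a, which frees p53 from Mdm2. Per the labels' protocols, cells were grown with 10% serum at 5% oxygen; senescent cells received the Cdk1 inhibitor RO3306 for 16 hours, Nutlin 3a for 48 hours and then 100 nM of the Plk1 inhibitor BI-2536 to remove dividing cells, over 12 days. That protocol text is attached to all 6 samples alike, and no other way of reaching quiescence is described. The labels give no strain, age or sex. Whether the replicates of a group came from separate cultures or animals is not stated either, so the spread behind each p-value may be technical.

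A lung fibroblast keeps a regional identity that dates from the embryo. T-box factors, Foxf1, Tcf21 and Meox2 mark the mesenchyme around the lung buds, and hedgehog ligand from the airway epithelium acts on that mesenchyme through Ptch1, Smo and the Gli factors. In the adult lung, Limch1, Npnt, Tcf21 and Inmt are used as markers of the fibroblasts that lie beside the alveoli. The comparison asked how the RNA of these genes differed between quiescent and senescent lung fibroblasts.

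Sequencing was of ribosomal RNA-depleted total RNA. The gene counts summed to 93736593 to 109706025 per library, of which Rn45s, Lars2 and Mir6236, treated here as ribosomal, took 79.8% to 82.8%. Levels are given as CPM, counts scaled to a common library total that includes those 3 genes, so that 1 CPM stood for 89.5 to 119 counts. Replicates of a group differed beyond sampling noise, and senescent replicate 3 stood furthest apart, with a chi-square per gene of 15.8 and 20.1 against the other senescent libraries and 2.27 to 4.12 for the remaining pairs within groups. The p53 target Cdkn1a had a mean of 29.9 CPM in quiescent and 65.8 CPM in senescent libraries, and the proliferation marker Mki67 52.6 and 10.4 CPM. Mki67 was thus higher in the libraries labelled quiescent, and whether all cells there had stopped dividing was not tested. The summed level of 14 general fibroblast markers was 6117 to 6385 CPM in quiescent and 5420 to 6070 CPM in senescent libraries. By the test described below, 5 of the 14 rose and 6 fell, beside 36.7% and 37.8% of all tested genes.

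Of the 10 genes, 2 rose (Npnt and Foxf1), 6 fell (Limch1, Meox2, Tbx4, Tcf21, Tbx5 and Tbx2), 1 passed no threshold (Inmt) and 1 had too few counts to be tested (Gli1). The test was edgeR's quasi-likelihood test with Benjamini-Hochberg adjustment over 14065 genes at 0.05, by which 36.7% of all tested genes rose and 37.8% fell. Against a fold of 2 (edgeR's glmTreat), 8.2% of all tested genes were higher and 9.31% lower, and the same 2 and 6 genes passed. The median log2 fold change over the 9 tested genes was -1.62, beside -0.02 over all tested genes. Libraries of the groups did not overlap for 8 of the 9 tested genes, Inmt being the exception, and for 78.3% of all tested genes. The groups were also apart for the untested Gli1, on 5 to 9 against 2 to 3 counts. Scaling by library totals without TMM shifted the median of all tested genes to -0.32 and the calls to 2952 higher and 7435 lower, in place of 5158 and 5316, and left the 8 calls and their directions in place. In bulk RNA, fewer cells of a type and less RNA per cell cannot be told apart.

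**Figure D1:**
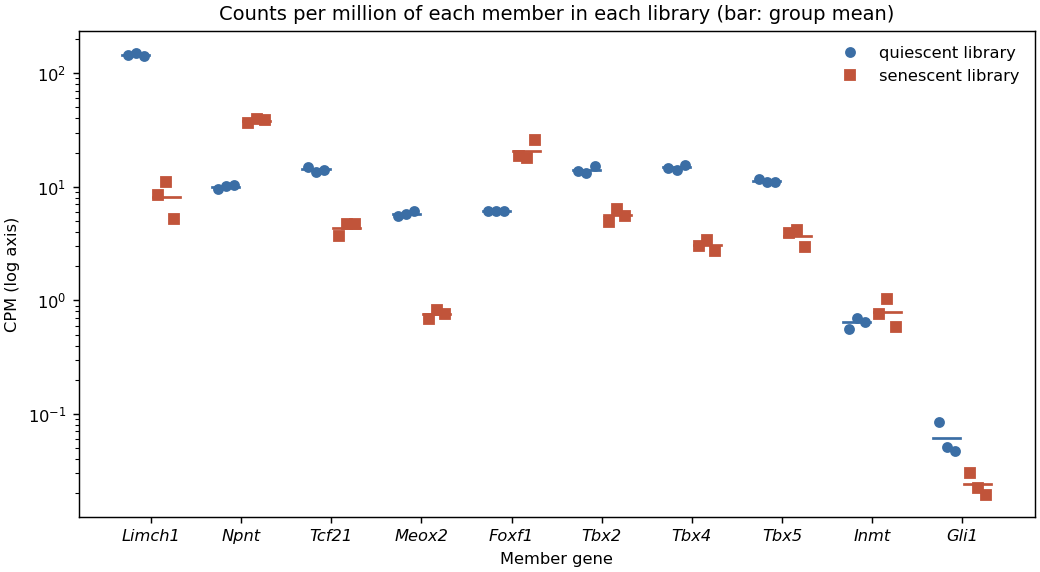
CPM (log axis) of each of the 10 genes in the 3 quiescent and 3 senescent libraries, with a bar at each group mean. Libraries of the groups are apart for every gene but Inmt, and Gli1 lies below 0.1 CPM in all 6.

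Expressed per kilobase of exon, which allows levels to be compared between genes, the order of the 10 genes changed with the state of the cells. In quiescent libraries Limch1 led at 14.1 ± 0.428 CPM per kb (SD, n = 3), followed by Tcf21 at 6.06 ± 0.324, Tbx4 at 4.35 ± 0.236 and Tbx2 at 3.88 ± 0.268 CPM per kb. Tbx4 and Tbx2 overlapped between libraries, as did Foxf1 (2.54), Meox2 (2.47) and Tbx5 (2.41 CPM per kb), each with the next. Npnt stood eighth at 2.00 ± 0.0771 CPM per kb, above Inmt (0.399) and Gli1 (0.0122). In senescent libraries Foxf1 led at 8.60 ± 1.74 CPM per kb with Npnt at 7.59 ± 0.270, which overlapped it. Tcf21 (1.86) and Tbx2 (1.55 CPM per kb) came next and overlapped. Tbx4 (0.895), Limch1 (0.796), Tbx5 (0.787) and Inmt (0.494 CPM per kb) each overlapped the next, and Meox2 (0.319) and Gli1 (0.0048 CPM per kb) closed the order.

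Limch1 carried most of the 10 genes' summed CPM in quiescent cells and little of it in senescent cells. Summed CPM is not scaled by exon length, and Limch1 has the longest exons of the 10 genes (10.3 kb), which raises its share. The 10 genes together amounted to 220.5 to 224.7 CPM in quiescent and 80.6 to 88.8 CPM in senescent libraries. Limch1 made up 64.1% to 66.7% of that sum in quiescent and 5.95% to 12.3% in senescent libraries. Without Limch1 the sums overlapped, at 74.9 to 79.3 CPM and 72.2 to 81.6 CPM.

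**Figure D2:**
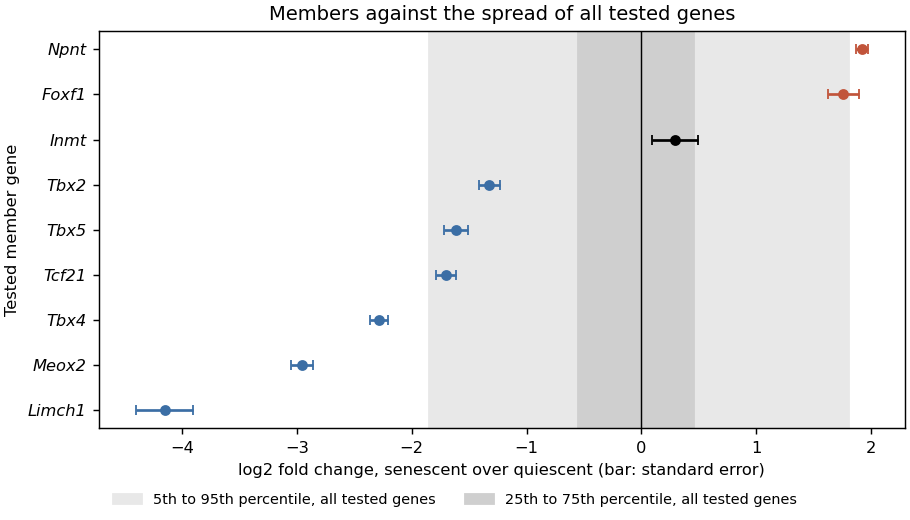
Log2 fold change of senescent over quiescent libraries for the 9 tested genes, with the standard error, over bands that hold the 25th to 75th and the 5th to 95th percentile of all 14065 tested genes. Limch1, Meox2 and Tbx4 lie below the 5th percentile (-1.85) and Npnt above the 95th (1.81).

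RefSeq promoter windows (GRCm38.p6, 250 bases before to 50 after a start) were at hand for 6 of the 10 genes. Limch1, the gene that fell furthest, and Npnt, one of the genes that rose, are shown because their first starts are both rich in CpG although their RNA moved in opposite directions. CpG pairs are in capitals in those 2 sequences, which are given 5′ to 3′ on the gene's strand up to the first annotated exon. The second Limch1 start and the Tbx4 start are shown because each holds a motif match, in capitals (forkhead in Limch1, E-box in Tbx4). Each of these starts lies inside the annotated gene, which for Tbx4 begins at chr11:85886422.
Limch1, first start, chr5:66745639-66745826, plus strand: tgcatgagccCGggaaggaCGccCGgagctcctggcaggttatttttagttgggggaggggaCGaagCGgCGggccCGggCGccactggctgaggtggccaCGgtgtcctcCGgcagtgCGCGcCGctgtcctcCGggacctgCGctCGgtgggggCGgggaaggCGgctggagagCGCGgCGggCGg
Npnt, chr3:132950292-132950541, minus strand: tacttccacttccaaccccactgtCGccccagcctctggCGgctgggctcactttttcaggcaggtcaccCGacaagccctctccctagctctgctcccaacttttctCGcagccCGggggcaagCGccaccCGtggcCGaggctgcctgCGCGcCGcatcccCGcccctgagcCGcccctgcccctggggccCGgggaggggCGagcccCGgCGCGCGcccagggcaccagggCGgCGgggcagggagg
Limch1, second start, chr5:66857219-66857468, plus strand: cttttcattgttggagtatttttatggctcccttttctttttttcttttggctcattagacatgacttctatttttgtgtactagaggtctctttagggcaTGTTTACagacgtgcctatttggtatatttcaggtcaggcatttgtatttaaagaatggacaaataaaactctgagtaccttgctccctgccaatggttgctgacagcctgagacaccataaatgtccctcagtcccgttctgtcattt
Tbx4, chr11:85896515-85896764, plus strand: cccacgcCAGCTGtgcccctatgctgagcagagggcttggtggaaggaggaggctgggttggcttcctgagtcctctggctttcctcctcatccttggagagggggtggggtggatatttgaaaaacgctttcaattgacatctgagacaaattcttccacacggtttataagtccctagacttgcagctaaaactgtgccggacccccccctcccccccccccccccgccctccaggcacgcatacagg

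The shown stretches hold 22 CpG pairs in Limch1 and 21 in Npnt. Over the whole windows, GC content was 72.7% with 35 CpG pairs for the first Limch1 start and 76.7% with 32 for Npnt. The second Limch1 start was poor in both, at 39.7% with 2 CpG pairs. Tcf21 (53.3%, 8 CpG pairs), Tbx4 (59%, 8), Meox2 (60.7%, 12) and Inmt (47.7%, 0) lay nearer to the median of all windows, 52.7% with 7 CpG pairs. Of 4 motifs searched on both strands, the GLI motif GACCACCCA (0.253% of 32851 windows) and the T-box motif AGGTGTGA (1.28%) were in none of the 9 windows of these genes. The forkhead motif GTAAACA (3.65% of windows) was found once, on the minus strand 149 bases before the second Limch1 start, where it reads TGTTTAC above. The E-box CAGCTG (16.3% of windows) is the kind of site bHLH factors such as Tcf21 bind. It was found 14 bases before the Inmt start and 243 before the Tbx4 start of that window, inside the annotated gene.

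Tcf21, a bHLH factor of visceral mesenchyme that also marks lipid-storing fibroblasts of the alveoli, fell. It had 15.1, 13.6 and 14.0 CPM in quiescent and 3.70, 4.74 and 4.69 CPM in senescent libraries. Every senescent library was below every quiescent one, and the means were 14.2 ± 0.760 and 4.38 ± 0.589 CPM (SD, n = 3). The log2 fold change was -1.70 (SE 0.09, edgeR adjusted p = 1.7e-08), 3.25-fold lower. Tcf21 lies on the minus strand at chr10:22817281-22820174 (GRCm38). Its nearest measured neighbours were Tbpl1, with a log2 fold change of 0.11 that passed no threshold, and Eya4, which fell (-0.64).

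Meox2, a homeobox factor of the mesoderm, fell further. Its levels were 5.49, 5.80 and 6.15 CPM in quiescent and 0.681, 0.816 and 0.758 CPM in senescent libraries. The groups were far apart and tight, with means of 5.82 ± 0.329 and 0.752 ± 0.0675 CPM. The log2 fold change was -2.95 (SE 0.10, edgeR adjusted p = 3.4e-10), 7.74-fold lower, the 186th lowest of the 14065 tested genes. The gene lies on the plus strand at chr12:37108540-37179534. Its paralog Meox1 rose by a log2 of 2.06 (SE 0.32, edgeR adjusted p = 1.2e-04) from few counts, 5, 10 and 4 in quiescent and 24, 24 and 23 in senescent libraries. Agmo, the neighbour whose start lies 133101 bases away, fell with Meox2 (-2.30).

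Foxf1, a forkhead factor that hedgehog signalling induces in lung mesenchyme, rose. It stood at 6.13, 6.14 and 6.10 CPM in quiescent libraries, a spread of 0.391% of the mean and the tightest of the 10 genes. With 652, 728 and 646 counts, counting error alone would give a wider spread, so this closeness is not read as steady expression. In senescent libraries Foxf1 had 18.6, 18.1 and 25.6 CPM, with replicate 3 highest. The means were 6.12 ± 0.0240 and 20.8 ± 4.21 CPM, a 3.39-fold rise (log2 1.76, SE 0.13, edgeR adjusted p = 5.0e-06). Without senescent replicate 3 the log2 fold change was 1.59. Of 15 tested markers of smooth muscle and pericytes, cells that also express Foxf1 in the lung, 11 rose and 3 fell. Over all tested genes, 36.7% rose and 37.8% fell. The markers that fell were Abcc9 (-0.90), Notch3 (-0.63) and Synpo2 (-0.48), the last not called under some settings. The summed level of these markers was 127 to 148 CPM in quiescent and 282 to 423 CPM in senescent libraries. Their part in the result was not tested.

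The transcript that shares the Foxf1 promoter region moved the other way. Fendrr is a long non-coding RNA on the opposite strand, at chr8:121054882-121083110, and its start lies 1276 bases from that of Foxf1 (chr8:121084386-121088144, plus strand). The annotated genes do not overlap. Fendrr had 3.80, 3.26 and 3.10 CPM in quiescent and 1.59, 1.30 and 2.23 CPM in senescent libraries, so that all senescent libraries were below all quiescent ones. Its means were 3.39 ± 0.366 and 1.71 ± 0.475 CPM. Its log2 fold change was -0.98 (SE 0.17, edgeR adjusted p = 6e-04), and it was below 0 under all 15 alternative settings, from -1.28 to -0.82. Mthfsd, 24006 bases away on the other side, had a log2 fold change of -0.07 and passed no threshold (adjusted p = 0.40). The paralog Foxf2 rose by a log2 of 0.32, a call lost when library totals without TMM were used (0.02, edgeR adjusted p = 0.83).

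**Figure D3:**
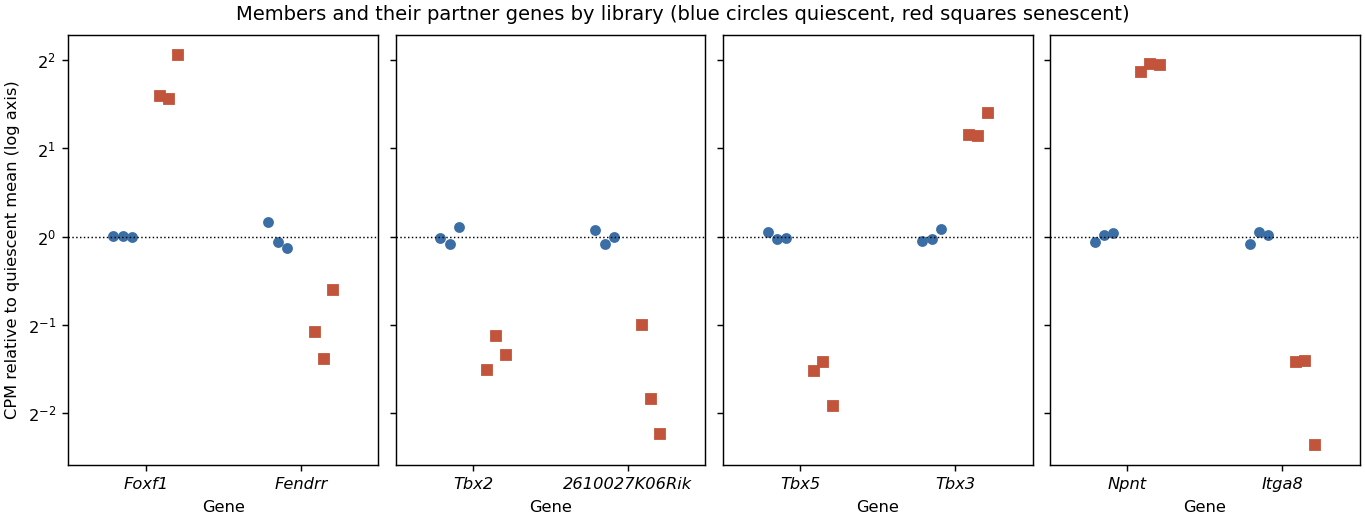
CPM of 4 of the genes and of a gene related to each, relative to the quiescent mean (log axis), in 3 quiescent (circles) and 3 senescent (squares) libraries. Foxf1 and Fendrr, Tbx5 and Tbx3, and Npnt and Itga8 part in opposite directions, whereas Tbx2 and 2610027K06Rik both fall.

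Among 33 tested factors of a wider list of mesenchymal transcription factors, which includes Tcf21, Meox2 and Foxf1, 11 rose and 18 fell, with a median log2 fold change of -0.30. Besides Foxf1 and Meox1, those that rose included Foxl1 (3.13), a forkhead factor of mesenchyme under epithelia, and Foxc2 (1.60). Foxl1 went from 0.433, 0.447 and 0.415 CPM in quiescent to 3.66, 3.63 and 4.11 CPM in senescent libraries. Besides Meox2 and Tcf21, those that fell included Osr1 (-1.59), which marks early lung mesenchyme, and the bHLH factor Msc (-4.89), which went from 84, 85 and 77 counts to 3, 1 and 3 counts. The list thus moved in both directions, as did all tested genes, of which 36.7% rose and 37.8% fell.

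Tbx2, Tbx4 and Tbx5 are among the T-box factors of lung mesenchyme, where Tbx4 and Tbx5 are needed for the lung buds to grow and branch. All 3 fell, whereas Tbx3, described below, rose. Tbx4 had 14.5, 14.2 and 15.7 CPM in quiescent and 3.04, 3.39 and 2.71 CPM in senescent libraries. Its means were 14.8 ± 0.801 and 3.04 ± 0.337 CPM, and its log2 fold change was -2.28 (SE 0.08, edgeR adjusted p = 6.3e-10), 4.86-fold lower. Tbx5 went from 11.6, 11.0 and 11.1 CPM to 3.90, 4.18 and 2.96 CPM. This was 3.06-fold lower, with a log2 fold change of -1.62 (SE 0.10, edgeR adjusted p = 1.2e-07). Tbx2 went from 13.9, 13.2 and 15.1 CPM to 4.91, 6.43 and 5.55 CPM. It was the least changed of the 3, at 2.50-fold lower (log2 -1.33, SE 0.09, edgeR adjusted p = 2e-07). No senescent library reached the lowest quiescent one for any of the 3 genes.

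Tbx2 (chr11:85832551-85841948) and Tbx4 (chr11:85886422-85916097) are neighbours on the plus strand of chromosome 11, with starts 53871 bases apart. The non-coding 2610027K06Rik starts 328 bases from Tbx2 on the opposite strand and fell too, from 36, 36 and 34 counts to 16, 8 and 7 counts (log2 -1.58, SE 0.29, edgeR adjusted p = 4.1e-04). Brip1, whose start is 314771 bases beyond that of Tbx4, fell as well (-1.24). Brip1 is a helicase of DNA repair. Tbx5 (chr5:119832668-119885219) and Tbx3 (chr5:119670669-119684724) form the other linked pair, on chromosome 5. Unlike the first pair, these neighbours moved in opposite directions.

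Tbx3, a T-box repressor, rose from 12.1, 12.4 and 13.4 CPM in quiescent to 28.2, 27.8 and 33.5 CPM in senescent libraries. Its means were 12.6 ± 0.645 and 29.8 ± 3.18 CPM (log2 1.24, SE 0.07, beyond the fold of 2 by glmTreat). Of all tested genes 36.7% rose and 37.8% fell, and the T-box family was near those shares. The family had 10 tested genes, of which 4 rose, 4 fell and 2 passed no threshold, with a median log2 fold change of 0.07. The others that rose were Eomes (3.41, SE 0.66, from 8, 12 and 9 counts to 75, 36 and 168), Tbx18 (0.50) and Tbx20 (0.42). Without senescent replicate 3, which held most of the Eomes counts, its log2 fold change was 2.73. With library totals in place of TMM, Tbx18 (0.20, edgeR adjusted p = 0.071) and Tbx20 (0.12, edgeR adjusted p = 0.37) no longer passed. The fourth that fell, Tbx6 (-0.60, edgeR adjusted p = 0.049), lost its call under 7 alternative settings and at a threshold of 0.01, and had too few counts for the test at a minimum count of 50. Mga (0.02) and Tbx15 (0.12) passed no threshold, and Tbx19, Tbx21 and Tbx22 had 0 counts in all 6 libraries.

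The make-up of T-box RNA per kilobase differed accordingly. The family summed to 15.5 to 16.4 CPM per kb in quiescent and 11.1 to 12.2 CPM per kb in senescent libraries. Tbx4 held 27.5% of the sum on average in quiescent and 7.79% in senescent libraries, Tbx2 24.5% and 13.5%, and Tbx5 15.2% and 6.87%. Tbx3 held 11.7% to 12.3% in quiescent and 37.0% to 41.6% in senescent libraries. Tbx4 thus had the largest share in each quiescent library and Tbx3 in each senescent one.

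**Figure D4:**
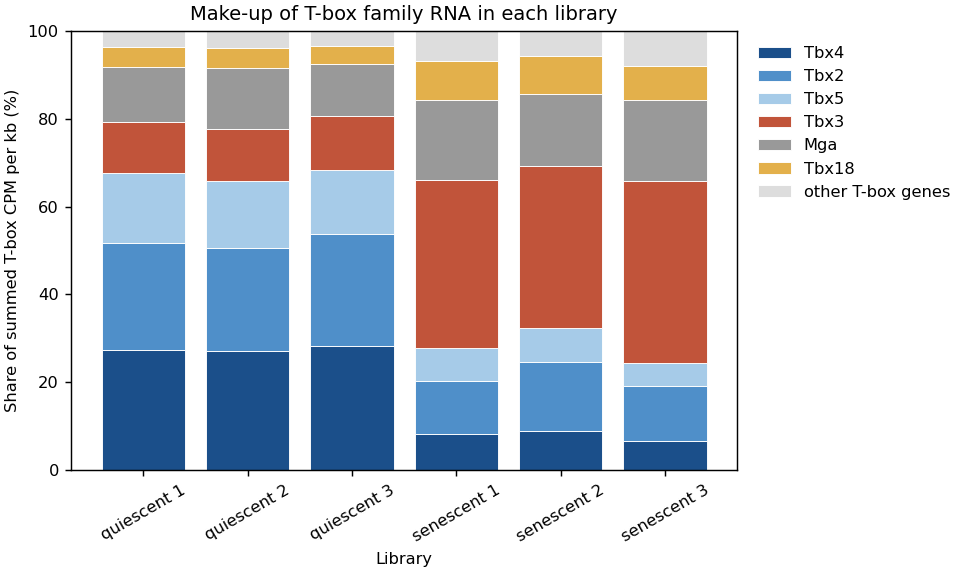
Share (%) of the summed CPM per kb of the T-box family held by each gene, 1 bar per library. Tbx4, Tbx2 and Tbx5 (blues) make up most of each quiescent bar, and Tbx3 (red) takes 37.0% to 41.6% of each senescent bar.

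Gli1, a transcription factor whose own transcription reports hedgehog signalling, was at the limit of detection in both groups. It had 9, 6 and 5 counts in quiescent and 3, 2 and 2 counts in senescent libraries, below the filter of the test. The summed counts, 20 and 7, gave a ratio of library-size-scaled counts of 0.396, with a 95% exact Poisson interval of 0.142 to 0.976 that covers counting error only. Fitted with no filter, the log2 fold change was -1.29 (SE 0.63), with an edgeR adjusted p of 0.08 over 19797 genes. A change was therefore not detectable at this depth by the test. The gene lies on the minus strand at chr10:127329882-127341974 and overlaps Arhgap9 on the other strand by 62 bases. Whether the authors' counting used strand is not stated in the labels or notes, so reads of the overlap cannot be told apart.

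The pathway around Gli1 was measured far better. Of 25 hedgehog pathway genes 21 were tested, 15 fell, 3 rose and 3 passed no threshold, with a median log2 fold change of -0.84. Beyond the fold of 2, 7 fell and 0 rose. The shares over all tested genes were 37.8% lower and 36.7% higher, and 9.31% and 8.2% beyond the fold of 2. Of the ligands, Shh had 0 counts in all libraries, and Ihh and Dhh were also too low to test. Co-receptors that hold the ligand for Ptch1 fell: Gas1 had 56.8, 51.7 and 58.7 CPM in quiescent and 2.44, 3.23 and 2.91 CPM in senescent libraries. The log2 fold change of Gas1, also known as a gene of growth arrest, was -4.29 (SE 0.09, edgeR adjusted p = 5.5e-11), so that it fell about as far as Limch1. Cdon fell from a mean of 30.7 ± 0.811 to 7.19 ± 1.38 CPM (-2.10), and Boc fell by 0.84 on the log2 scale.

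Downstream of the ligand, the signal transducer Smo went from 20.3 to 10.7 CPM (log2 -0.93). Gli2, the main activator among the Gli factors, fell from 5.32, 5.09 and 5.80 CPM to 0.631, 0.883 and 0.573 CPM, with no overlap (log2 -2.97, SE 0.13, edgeR adjusted p = 2.8e-09). Gli3, mostly a repressor, fell less, from 13.4 ± 0.261 to 10.3 ± 0.0409 CPM (-0.38). The inhibitor Sufu (-0.48) fell too. Ptch1, which is both the receptor and a target of the pathway, went from 6.29 ± 0.0806 to 5.14 ± 0.523 CPM (log2 -0.29, edgeR adjusted p = 0.0049). Another target, the decoy receptor Hhip, had 1.74, 1.98 and 2.25 CPM in quiescent and 1.98, 2.15 and 3.86 CPM in senescent libraries, which overlap (edgeR adjusted p = 0.17). The genes that rose were Spop (0.82), an adaptor for degradation of Gli proteins, Grk2 (0.66), a kinase that acts on Smo, and Hhat (0.40), which acylates the ligand. Hhat lost its call with library totals (0.10, edgeR adjusted p = 0.45).

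**Figure D5:**
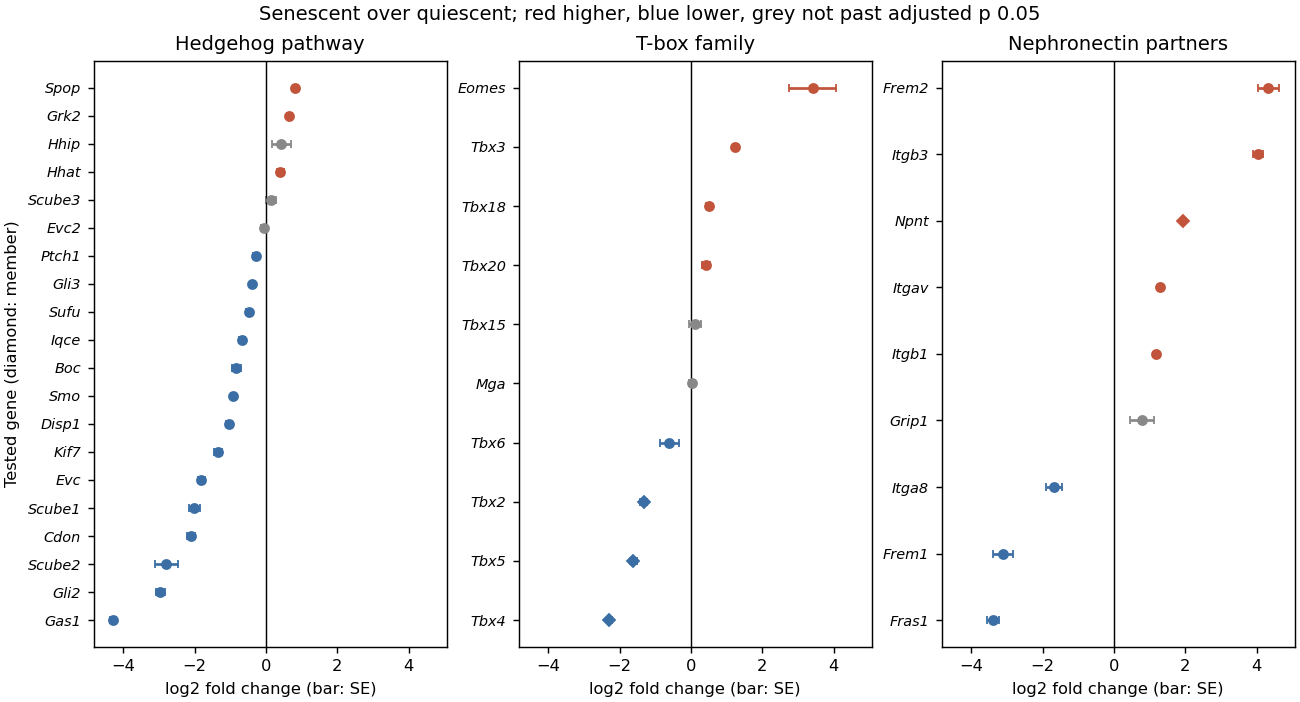
Log2 fold change with standard error of the tested hedgehog pathway genes (all but 1 of the 21), T-box genes and nephronectin partners, senescent over quiescent (diamonds mark genes of the 10; red higher, blue lower, grey not past the threshold). Most hedgehog genes lie left of 0 (15 of 21 fell), while the T-box family is divided 4 and 4. Of all tested genes, 36.7% rose and 37.8% fell.

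Npnt encodes nephronectin, a basement membrane protein that binds the integrin made of the alpha8 and beta1 chains. It rose from 9.62, 10.2 and 10.4 CPM in quiescent to 36.6, 39.2 and 38.7 CPM in senescent libraries. The libraries of each group lay close together, and the means were 10.1 ± 0.388 and 38.2 ± 1.36 CPM. The log2 fold change was 1.92 (SE 0.05, edgeR adjusted p = 9.8e-11), a 3.79-fold rise. Npnt lies on the minus strand at chr3:132881745-132950291. Genes whose values over the 6 libraries lay nearest to it, by Euclidean distance of log2 CPM from the quiescent mean, were Acsl4 (0.093), Slc2a1 (0.098) and Esd (0.098).

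Its receptor chains did not move together. Itga8, the alpha8 chain, had 23.3, 25.6 and 25.0 CPM in quiescent and 9.19, 9.28 and 4.76 CPM in senescent libraries, with replicate 3 lowest. Its log2 fold change was -1.67 (SE 0.23, edgeR adjusted p = 5e-04) with that library and -1.41 without it. Itgb1, the beta1 chain shared by many integrins, rose from 286.6 ± 9.01 to 644 ± 32.4 CPM (1.17). Itgav (1.29) and Itgb3 (4.05, SE 0.14), the chains of the alphav beta3 integrin, rose too, Itgb3 from 2.05, 2.28 and 2.98 CPM to 35.6, 39.8 and 45.2 CPM. Of the matrix proteins that act with nephronectin beneath epithelia, Fras1 (-3.39) and Frem1 (-3.11) fell, while Frem2 rose (4.33) from 2, 4 and 4 counts to 58, 53 and 73 counts. Grip1, which carries this complex to the cell surface, passed no threshold (0.80, edgeR adjusted p = 0.052). In all, 5 of 9 tested genes of this list, Npnt included, rose and 3 fell, with a median log2 fold change of 1.17. Over all tested genes, 36.7% rose and 37.8% fell.

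Limch1 encodes an actin-binding protein with LIM and calponin domains that activates non-muscle myosin. It had 143.5, 149.8 and 141.4 CPM in quiescent and 8.42, 10.9 and 5.16 CPM in senescent libraries. The lowest senescent library was replicate 3, and the senescent libraries varied by 35.5% of their mean, more than for any other of the 10 genes tested. The means were 145 ± 4.39 and 8.17 ± 2.90 CPM, 17.7-fold lower, with a log2 fold change of -4.15 (SE 0.25, edgeR adjusted p = 5.6e-06), the 51st lowest of the 14065 tested genes. Without senescent replicate 3 it was -3.90. The fall rested on many reads: 14984 to 17766 counts in quiescent and 531 to 979 counts in senescent libraries.

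Limch1 spans chr5:66745827-67057158 on the plus strand. The genes nearest to it in their patterns were Tbxa2r, the thromboxane receptor (distance 0.37), Abca8a (0.40) and Gm4951 (0.46). Its closest relative in sequence, Lmo7, had a log2 fold change of 0.41, a call lost with library totals (0.12, edgeR adjusted p = 0.36). Of 23 tested LIM and calponin-domain regulators of actin, Limch1 included, 14 rose and 7 fell, beside 36.7% and 37.8% of all tested genes. The median of these regulators was 0.47. Pdlim1 (1.89), Lims2 (1.55) and Csrp2 (1.48) were among those that rose, and Pdlim2 (-2.47) and Fhl1 (-1.52) among those that fell.

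Inmt, which methylates tryptamine and related amines and is abundant in lung, was low and passed no threshold. It had 0.564, 0.700 and 0.651 CPM in quiescent and 0.761, 1.03 and 0.583 CPM in senescent libraries. Senescent replicate 3 fell within the quiescent range, so the groups overlapped. The log2 fold change was 0.29 (SE 0.20, edgeR adjusted p = 0.2). Without senescent replicate 3 it was 0.48 with an adjusted p of 0.012, and over all 15 alternatives the adjusted p ran from 0.012 to 0.96. Inmt lies on the minus strand at chr6:55170626-55175043. Of 11 tested small-molecule methyltransferases and their cofactor genes, 3 rose and 6 fell, with a median of -0.20. Among all tested genes, 36.7% rose and 37.8% fell. Mat2a (0.58), which makes the methyl donor, rose, and Gamt (-2.36), which makes creatine, fell. Nnmt, a methyltransferase of nicotinamide, had a log2 fold change of -0.01 and passed no threshold.

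Markers of alveolar fibroblasts as a wider list, which shares Limch1, Npnt, Tcf21 and Inmt with the 10 genes, moved mostly downward. Of 22 tested, 13 fell and 4 rose, with a median log2 fold change of -1.17, and 11 fell and 3 rose beyond the fold of 2. Over all tested genes, 37.8% fell and 36.7% rose, and 9.31% and 8.2% did so beyond that fold. Adh1, an alcohol dehydrogenase that can oxidise retinol, fell from 32.5, 29.5 and 34.7 CPM to 1.73, 1.69 and 1.93 CPM (-4.17, SE 0.08). Gyg (-3.19), which primes glycogen, and Pdgfra (-1.45), a growth factor receptor of fibroblasts, also fell. Besides Npnt, the chemokine Cxcl14 (1.87) and the lipid droplet protein Plin2 (1.62) rose. The list's summed level was 860 to 880 CPM in quiescent and 472 to 497 CPM in senescent libraries.

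Of 15 tested signals of lung mesenchyme to epithelium and vessels, 10 fell and 2 rose, beside 37.8% and 36.7% of all tested genes. The median of these signals was -0.68. Their summed level was nonetheless higher in senescent libraries, at 532 to 605 CPM against 483 to 513 CPM in quiescent ones. That higher sum rested on Vegfa, whose mean of 31.5 CPM in quiescent and 298 CPM in senescent libraries rose by more than the sum did. Bmp4 fell from 36.7 ± 2.55 to 8.74 ± 0.418 CPM (-2.07), and Vegfd (-2.79) and Bmp5 (-1.996) fell. Fgf10, which drives branching of the lung buds, fell by 0.52 on the log2 scale. Vegfa, the main growth factor of vessels, rose from 31.8, 31.2 and 31.5 CPM to 270.1, 269.8 and 353.6 CPM (3.24, SE 0.11), and Fgf7, a growth factor for epithelium, rose (1.44).

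Markers of other cell types were low in both groups and rose in part. Among all tested genes, 36.7% rose and 37.8% fell. The summed level of 18 epithelial markers was 2.22 to 2.23 CPM in quiescent and 6.80 to 8.86 CPM in senescent libraries, with 3 of 5 tested higher and 1 lower. Nkx2-1 and Sftpd, which define lung epithelium, had 0 counts in all libraries. Endothelial markers summed to 8.31 to 9.08 and 12.5 to 14.8 CPM (3 of 10 tested higher, 2 lower), and Pecam1 had 3, 3 and 6 counts in quiescent and 6, 5 and 5 counts in senescent libraries. Markers of macrophages and other leukocytes summed to 4.11 to 4.36 and 11.7 to 15.7 CPM (6 of 6 tested higher). Cd3e had 0 counts, and Ptprc, which all leukocytes carry, had 1, 0 and 2 counts in quiescent and 9, 2 and 7 counts in senescent libraries. Mesothelial markers summed to 13.4 to 14.6 and 11.4 to 13.7 CPM (1 of 10 tested higher, 5 lower), and skeletal and cardiac muscle markers to 11.6 to 13.7 and 14.3 to 23.1 CPM (2 of 5 higher, 3 lower), with Pax7 at 0 in all. Of the better measured markers in these lists (mean log2 CPM no lower than 0), Krt19 (2.96), Flt1 (2.16), Lyz2 (1.69), Cd14 (1.58), Acta1 (5.05) and Des (0.93) rose. Tek (-2.67), Rspo1 (-4.19), Upk3b (-1.64), Myh1 (-2.62) and Tnnt2 (-1.36) fell. The part of other cell types in the changes of the 10 genes was not tested.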

How the data were processed

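The deposited table holds whole-number counts per gene symbol for 6 libraries, as the authors made them. The submitters' processing notes name mm10, edgeR 3.32.1 and limma 3.46.0 without a role; aligner, counting tool and strand setting are not given in those sources. A table of repeat counts was not used. From the counts, genes were filtered with filterByExpr by group (minimum count 10), scaled by TMM and tested in edgeR 4.0.16 (R 4.3.3) by its quasi-likelihood F test, fitted robustly, over 14065 genes, with Benjamini-Hochberg adjustment at 0.05. glmTreat tested against a fold of 2. Each standard error was obtained by dividing the log2 fold change by the root of its F value. CPM used the TMM-scaled total of tested genes, ribosomal ones included. Low counts limit precision, counts are reads without molecular identifiers, and intervals cover counting error only.

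Positions and exon lengths came from GENCODE M21 (GRCm38, the assembly of mm10), which matched 24374 of 25239 symbols, and promoter windows from RefSeq (GRCm38.p6), searched on both strands. The 10 genes, the 18 lists and the tests were chosen with earlier results of these data known. Named were the 10 genes, at most 3 genes in each direction per list (mean log2 CPM no lower than 0), the 3 nearest patterns of Limch1 and Npnt, and neighbours; any others were picked with their values in view. The alternatives tried were limma-voom (3.58.1), DESeq2 1.42.0, other scalings and filters, a threshold of 0.01, a replicate block, and each library left out. The code was tested on simulated data. Some listed genes are counted but not reported here by name.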

Additional observations from a re-analysis of the deposited data

How the results depend on the processing

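Over the 16 alternatives, 6 of the 10 genes were lower in each and 2 or 3 higher, and over 14 alternatives 8 lay beyond the fold of 2. The log2 fold change ran from -4.47 to -3.90 for Limch1, 1.63 to 1.96 for Npnt, -2.002 to -1.59 for Tcf21, -3.25 to -2.88 for Meox2, 1.47 to 1.85 for Foxf1, -1.63 to -1.23 for Tbx2, -2.58 to -2.20 for Tbx4 and -1.92 to -1.47 for Tbx5, with adjusted p at most 3.4e-04. With library totals in place of TMM, Inmt turned to -0.0096 (edgeR adjusted p = 0.96) and 2 T-box genes were higher instead of 4, while Mga passed as lower (-0.28); the median of all tested genes was -0.32 there. Without senescent replicate 3, Inmt passed as higher (0.48). Hedgehog genes were 2 to 4 higher and 14 to 16 lower, and T-box genes 3 to 5 lower. Whether same-numbered libraries share more than a number is not stated. The correlations of their deviations from the group means were 0.05, -0.01 and 0.06, which cannot settle it. With the replicate number as a block, 2 of the 10 genes were higher and 6 lower, 8 lay beyond the fold of 2, hedgehog genes were 4 higher (Hhip added, 0.39, edgeR adjusted p = 0.02) and 15 lower, T-box genes 4 and 4, and all genes 5124 higher and 5281 lower. DESeq2 called 5153 genes higher and 4748 lower. Depth limits Gli1, with 2 to 9 counts per library.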

Other observations

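Fibroblasts around airways and vessels carry other markers than those beside the alveoli, and these lists were mixed. Over all tested genes, 36.7% rose and 37.8% fell. Of 17 tested adventitial markers 5 rose and 9 fell, with a median log2 fold change of -0.23 and a summed level of 664 to 686 CPM in quiescent and 328 to 358 CPM in senescent libraries. Col15a1 (1.95), a collagen of vessel walls, and Ly6c1 (1.29) rose. Cygb (-2.999), a globin of fibroblasts, Col14a1 (-2.19) and Clec3b (-1.90) fell. Of 16 tested peribronchial and myofibroblast markers 7 rose and 8 fell, with a median of -0.27. Their summed level was 192 to 230 CPM in quiescent and 651 to 844 CPM in senescent libraries. Most of that sum came from Tagln (means of 78.0 and 487 CPM) and Acta2 (80.8 and 190 CPM). Acta2 rose but did not pass against the fold of 2 (glmTreat adjusted p = 0.17). Those that rose included the receptor Lgr6 (4.54, from 5, 4 and 5 counts to 69, 84 and 143) and the contractile genes Tagln (2.64), Actg2 (2.16) and Myh11 (1.69), the last from 12.6, 13.1 and 9.31 CPM to 45.7, 42.8 and 24.6 CPM, lowest in replicate 3 of both groups. Fgf18 (-2.11), Aspn (-1.40) and Enpp2 (-1.29) fell. Among general fibroblast markers, Thy1 (2.72) and Fn1 (0.94) rose and Col3a1 (-1.95) and Col6a1 (-1.31) fell.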
